A study of Mus musculus with 6 samples.

Results

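The transcripts described here come from the ZBTB, ZSCAN and ZKSCAN genes, 3 named families of zinc finger transcription factors. The members were chosen by symbol, as every gene of the table named Zbtb, Zscan or Zkscan followed by a digit, which gave 60 of 16199 genes: 42 Zbtb, 9 Zscan and 9 Zkscan. Poly(A)-enriched RNA was sequenced from infarcted myocardium of mice, and all 6 libraries share ligation of the left anterior descending coronary branch and collection at day 7. Per the labels, 3 libraries are wild type and 3 carry the genotype ITIH5 knockdown. How Itih5 was knocked down, in which cells, and the strain and age of the animals are not stated in the labels used here. Nothing in the labels ties each library to its own animal, so errors and intervals below measure the spread between libraries only, which may be technical. The families were put forward with the wild-type against knockdown differences of these same libraries known. The group differences of the members are therefore given as a description, and no test on them is used as support.

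All 3 families bind DNA through C2H2 zinc fingers, small zinc-holding loops that each contact a few bases. ZBTB proteins carry a BTB domain at the amino end, through which they pair with each other and recruit corepressors such as NCOR and SMRT with histone deacetylases, and several members fix the fate of lymphocytes or dendritic cells. ZSCAN and ZKSCAN proteins carry a SCAN domain, which also pairs them with each other, and ZKSCAN proteins add a KRAB domain, through which many zinc finger proteins recruit the corepressor TRIM28. In the heart they are low-abundance regulators expressed by many cell types.

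The deposited values are close to TPM, a length-corrected share of the transcripts of a library, so levels can be set side by side between genes. In each library low values lie near whole multiples of a step, from 0.889 in wild-type replicate 3 to 1.163 in knockdown-labelled replicate 1. The spread about these multiples was widest in knockdown-labelled replicate 1, which also had the fewest genes listed at 0, 211 against 731 to 1080 in the others. Some values of that library lay just above 0, such as Zbtb8b at 0.0119. A gene not listed at 0 there need not have been detected, which also limits the counts of genes listed at 0 below. How the values were adjusted is not stated. Read depth per gene is unknown. The knockdown was not visible in the transcript: Itih5 was at 9.73, 13.1 and 17.2 in the wild-type libraries, against 18.4, 10.5 and 20 in the knockdown-labelled libraries (exact two-sided permutation p = 0.5, where 0.1 is the smallest that 3 against 3 libraries allow), so every direction below refers to the labels. Heart muscle markers were abundant in every library, with summed values of 8693 to 10769 in the wild-type libraries, against 8255 to 26847 in the knockdown-labelled libraries. The library labelled knockdown replicate 1 stood apart, with 32.6% of its summed values from mitochondrially encoded genes, where the other libraries had 10.9% to 20.2%.

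Most members were expressed at low levels. The median member of the Zbtb class had a mean of 7.45 over the 6 libraries and the median member of the Zscan and Zkscan classes a mean of 6.63, against 11.8 for all genes in the table. A mean under 5 was found for 16 members, 26 lay from 5 to under 10, and 18 reached 10 or more. With a minimum mean of 1, 58 members could be fitted, and only Zbtb8b and Zbtb37 fell below it. Zbtb37 was at 1 step in each of the 6 libraries. For 11 of the 58 fitted members the 6 libraries spanned about 1 step or less, so that rounding alone could set their differences. Zbtb39, at 3.90, 3.74 and 3.60 against 3.51, 3.85 and 3.99, is one of these.

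**Figure D1:**
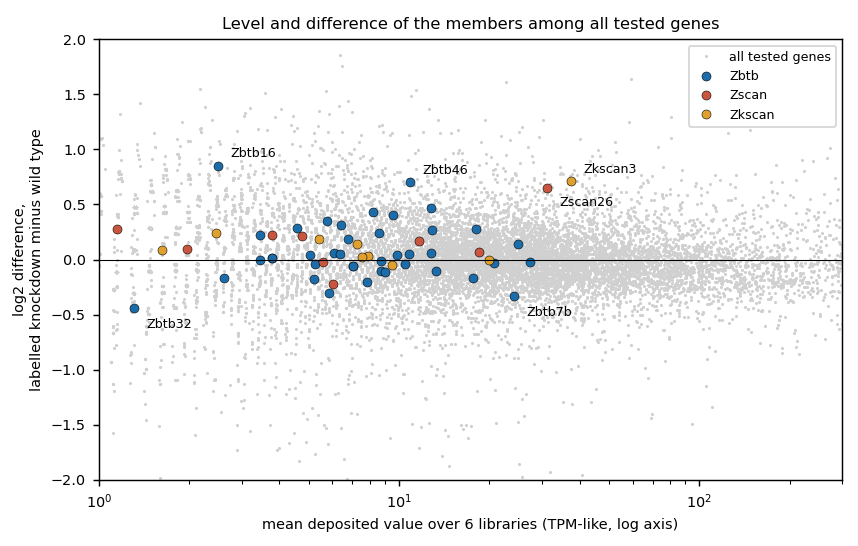
Mean deposited value of each gene over 6 libraries (log axis) against its log2 difference, labelled knockdown minus wild type; grey points are all tested genes, coloured points the 58 fitted members, and genes beyond the axis limits are not drawn. Zkscan3 and Zscan26 combine the highest levels of the families, with means of 37.5 and 31.1, with log2 differences of 0.71 and 0.65.

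As a class, the 40 fitted Zbtb genes showed no common direction, while most fitted Zscan and Zkscan genes had higher means in the knockdown-labelled libraries. On the log2(value + 1) scale, 23 Zbtb members had a higher and 17 a lower mean, with a median log2 difference of 0.02. For the 18 Zscan and Zkscan members the counts were 14 higher and 4 lower, with a median of 0.12, and the 9 Zscan (0.17) and 9 Zkscan members (0.09) each had 7 higher and 2 lower. The 327 fitted genes named Zfp and a number also had a median of 0.12, and 236 of them (72.2%) had a higher mean. Over all 14025 tested genes the median was 0.00, and 50.8% had a higher and 49.2% a lower mean. The split depended on the scale between libraries. With each library rescaled to a sum of 1000000, which moved the median of all genes to -0.13, 14 of 40 Zbtb members were higher (median -0.10) and 11 of 18 Zscan and Zkscan members (median 0.01), beside 4555 of 14025 genes. After quantile normalization, which left the median of all genes at -0.01, 17 of 40 and 11 of 18 members were higher. Whether the 2 classes differ from each other or from other genes was not tested. Heart muscle markers had higher means for 12 of 12 genes (median 0.69, and 0.24 without knockdown-labelled replicate 1), and their part in these splits was not tested. In tissue RNA, fewer cells of a type and less RNA per cell cannot be told apart.

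No member passed the limma test after Benjamini-Hochberg adjustment over all tested genes, beside 0.00% of all genes in either direction. At an unadjusted p under 0.05, 6 Zbtb members were higher and 1 lower, and 2 Zscan or Zkscan members were higher and 0 lower, beside 8.29% of all genes higher and 6.55% lower. The deposited values of the groups did not overlap for 14 members that were higher (9 Zbtb, 4 Zscan and 1 Zkscan) and for 2 Zbtb members that were lower, beside 12.6% and 9.88% of all genes. Of 327 fitted genes named Zfp and a number, 26.6% were apart as higher and 2.14% as lower. At an unadjusted limma p under 0.05, 17.1% of these Zfp genes were higher and 0.612% lower. Much of the separation of the members was lost when values were expressed in steps. When each value was divided by the step of its library and rounded to a whole number, 3 members remained apart as higher (Zkscan3, Zscan26 and Zbtb20) and 1 as lower (Zbtb7b), beside 2.91% and 15.0% of all genes. Division by the step also lowers every gene of knockdown-labelled replicate 1, whose step is the largest, so rounding and scale are not told apart here. Rescaled to a sum of 1000000 with no rounding, 9 members did not overlap, beside 834 higher and 2398 lower of all genes. Of the Zbtb members 3 were then higher and 2 lower, and of the Zscan and Zkscan members 3 higher and 1 lower.

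**Figure D2:**
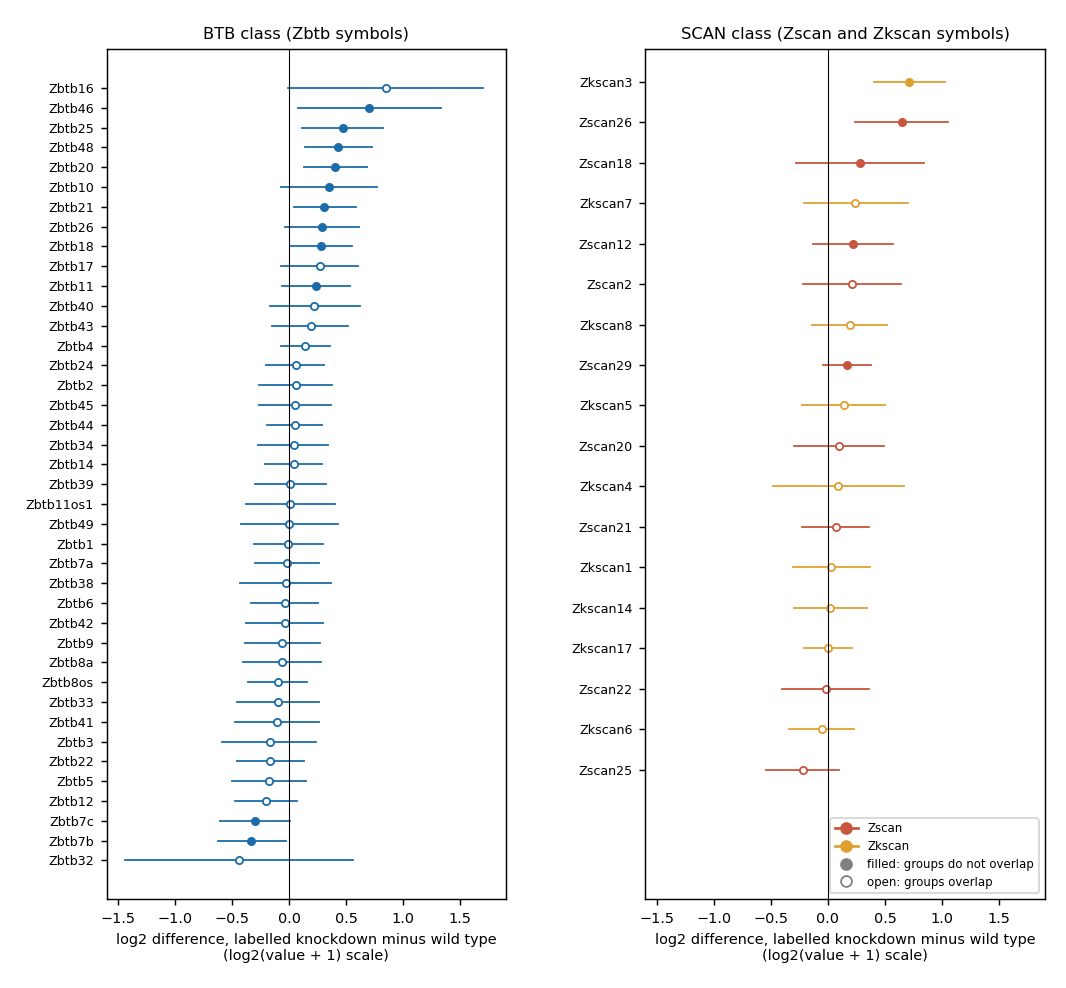
Log2 difference, labelled knockdown minus wild type, of each fitted member with its 95% interval (lines), the 40 Zbtb symbols on the left and the 18 Zscan and Zkscan symbols on the right, ordered by size. Filled points mark the 16 members whose deposited values did not overlap between the groups; the intervals of Zkscan3 (0.40 to 1.03) and Zscan26 (0.24 to 1.05) lie farthest above 0 among the SCAN genes.

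Among the SCAN genes, Zkscan3 stood highest and had the largest difference. Zkscan3 encodes a KRAB and SCAN zinc finger protein that has been described as a repressor of autophagy and lysosome genes. It was at 27.3, 33.7 and 24.0 in wild-type replicates 1, 2 and 3 and at 43.9, 47.3 and 48.9 in the knockdown-labelled libraries. All 3 knockdown-labelled libraries lay above all wild-type libraries, and in steps the lowest of them (37.7) and the highest wild-type library (36.2) stayed apart. Group means were 28.3 ± 4.96 (SD, n = 3) and 46.7 ± 2.58 (SD, n = 3), and the log2 difference was 0.71 (SE 0.13, 95% interval 0.40 to 1.03). It was 0.76 without knockdown-labelled replicate 1.

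Zscan26, a SCAN zinc finger gene of less known function, had the same picture. Its values were 23.4, 31.0 and 18.6 in the wild-type libraries, against 39.1, 36.7 and 37.9 in the knockdown-labelled libraries, with means of 24.3 ± 6.24 and 37.9 ± 1.21 (SD, n = 3 each). The groups did not overlap, although in steps wild-type replicate 2 (33.2) and knockdown-labelled replicate 1 (33.6) nearly met, and the wild-type libraries spread more widely than the others. An unlisted non-coding gene, 4930470G03Rik, shares 3755 bases with Zscan26 on the opposite strand. The log2 difference was 0.65 (SE 0.17, 95% interval 0.24 to 1.05), and 0.48 without wild-type replicate 3. In wild type both Zkscan3 and Zscan26 were highest in replicate 2 and lowest in replicate 3.

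The nuclear-retained RNAs Neat1 and Malat1 followed that same order. Neat1 was at 56.5, 67.5 and 32.6 in the wild-type libraries, against 118, 100 and 107 in the knockdown-labelled libraries, and Malat1 at 95.6, 132 and 80.5 against 175, 140 and 167. In wild type Meg3, of the same list, also had this order, at 16.5, 23.4 and 15.2. Rian (41.0, 47.9 and 48.8) and Mirg (2.91, 2.77 and 3.61) did not, being highest in replicate 3. All 5 fitted RNAs of that list had higher means in the knockdown-labelled libraries (median log2 difference 0.43), with summed values of 181 to 274 in the wild-type libraries, against 321 to 378 in the others. Their part in the differences of Zkscan3 and Zscan26 was not tested.

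Zkscan3 and Zscan26 are neighbours on chromosome 13. In mm10, Zkscan3 lies on the minus strand from 21387003 to 21402755 and Zscan26 on the minus strand from 21442180 to 21453730, both annotated as protein coding, with 39.42 kb between them. The same stretch holds Zscan12 (21362820 to 21372289, plus strand), Zkscan4 (21478907 to 21485507, plus strand) and Zkscan8 (21513222 to 21531120, minus strand), so that 5 of the 18 SCAN members sit within one cluster. The other 3 members of the cluster were expressed far lower. Zscan12 was at 2.92, 3.76 and 3.58 against 4.61, 3.85 and 3.99, which is 3 to 4 steps in every library, and its log2 difference was 0.22 (95% interval -0.13 to 0.57). Zkscan8 was at 4.88, 4.68 and 5.38 against 5.83, 6.75 and 4.99 (log2 difference 0.19, 95% interval -0.14 to 0.52), and Zkscan4 stayed at 1 to 2 steps throughout (0.09, 95% interval -0.48 to 0.67). Of the other genes there, Pgbd1, which lies between Zkscan3 and Zscan26, was at 1 step or below in all 6 libraries. Trim27, the nearest tested gene on the other side of Zscan12, was at 24.4, 26.3 and 23.5 against 18.7, 22.2 and 24.0 (-0.19, 95% interval -0.46 to 0.08). Gm11273, between Zkscan4 and Zkscan8, was at 2.93, 1.85 and 2.60 against 8.99, 3.83 and 2.99, with an interval that includes 0 (0.75, 95% interval -0.06 to 1.56).

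**Figure D3:**
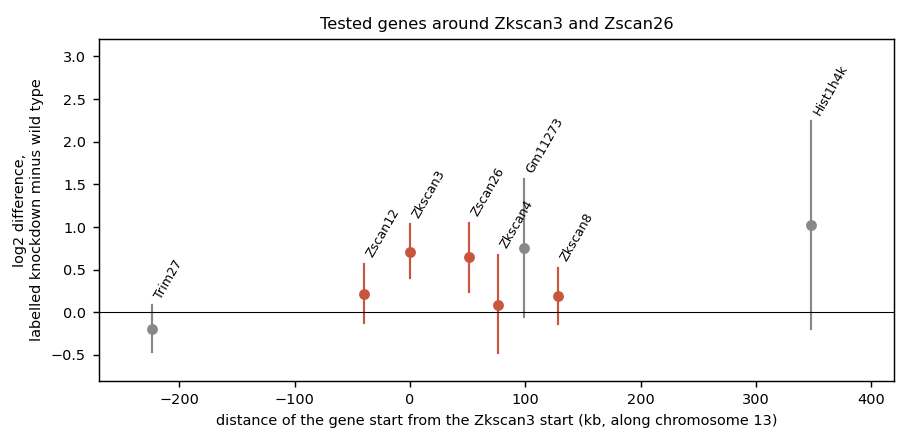
Log2 difference with 95% interval (lines) of the tested genes within 400 kb of Zkscan3, against the distance of each gene start from that of Zkscan3; SCAN members are red and other genes grey. Zkscan3 (0.71) and Zscan26 (0.65) are the members of the cluster whose intervals lie above 0.

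Promoter sequence was available for 51 of the 60 members (RefSeq, GRCm38.p6). Of the cluster, Zkscan3 had no such sequence, and the Zkscan4 window kept only 4 bases once exons were left out. The sequences of Zscan26, Zscan12 and Zkscan8 are shown because members of the cluster differ in level and in difference while lying side by side. Each runs 5′ to 3′ on the strand of its gene, covers up to 250 bases before the start and leaves out annotated exons. Capitals mark matches, on either strand, to GGGCGG (the GC box), CCAAT (the box of that name), CACGTG (the E-box), TATAAA (the TATA box), CCGGAAG (an ETS core), the NRF1 site (GCGCA and then its reverse complement) and the Kaiso palindrome (TCTCG and then its reverse complement), which the product of Zbtb33 binds. Matches of the GC box on the same strand can overlap each other, and each is then counted. The windows are chr13:21453731-21453977 for Zscan26 (minus strand), chr13:21362570-21362819 for Zscan12 (plus strand) and chr13:21531121-21531364 for Zkscan8 (minus strand).
Zscan26: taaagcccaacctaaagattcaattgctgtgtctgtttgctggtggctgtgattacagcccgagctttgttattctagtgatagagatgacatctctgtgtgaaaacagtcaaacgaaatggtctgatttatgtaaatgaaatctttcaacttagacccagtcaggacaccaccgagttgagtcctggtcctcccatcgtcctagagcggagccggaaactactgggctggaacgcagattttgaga
Zscan12: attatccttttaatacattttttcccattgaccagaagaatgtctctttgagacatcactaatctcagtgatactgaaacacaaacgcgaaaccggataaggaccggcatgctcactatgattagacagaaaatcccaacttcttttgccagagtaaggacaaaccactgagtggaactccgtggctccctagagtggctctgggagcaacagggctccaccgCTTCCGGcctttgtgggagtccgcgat
Zkscan8: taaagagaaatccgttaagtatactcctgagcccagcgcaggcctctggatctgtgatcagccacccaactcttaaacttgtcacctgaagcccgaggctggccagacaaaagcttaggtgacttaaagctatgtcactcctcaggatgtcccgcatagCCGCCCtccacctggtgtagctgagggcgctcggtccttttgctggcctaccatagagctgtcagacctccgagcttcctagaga
The Zscan26 window held none of these motifs, the Zscan12 window 1 ETS core and the Zkscan8 window 1 GC box. For shares of equal length, windows of 250 bases with no annotated exon were used, 29 of the members and 18038 of all genes. A GC box was in 51.7% of the member windows against 23.3% of all, and an ETS core in 4 of 29, or 13.8%, against 4.01%. CCAAT was in 27.6% against 34.4%, the E-box in 3.45% against 5.19% and TATAAA in 3.45% against 14.6%. The NRF1 site and the Kaiso palindrome were in 0 of 29, beside 0.438% and 0.200% of all. With exons left in, 69 member windows and 32851 of all genes gave a GC box in 52.2% against 32.7%, an ETS core in 18.8% against 6.91%, and an E-box in 10.1% against 6.02%. CCAAT was then in 27.5% against 33.8% and TATAAA in 10.1% against 12.4%. The NRF1 site was in 3 of 69 windows, of Zbtb17 and Zbtb41, or 4.35% against 0.782%. The Kaiso palindrome was in 0 of 69, beside 0.39% of all. Over these untrimmed windows the median GC content was 64.6% in the Zbtb windows and 54.4% in the Zscan and Zkscan windows, beside 52.4% for all. These are matches of letters, not measured binding.

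The other SCAN genes named here differed little between the groups. Zscan29, a SCAN zinc finger gene, was at 10.7, 11.3 and 10.8 against 12.7, 12.5 and 12, without overlap in the deposited values but at 11 to 13 steps in every library (log2 difference 0.17, 95% interval -0.04 to 0.38). Zkscan17, among the more abundant members, was at 20.5, 20.7 and 18.9 against 20.9, 20.2 and 19.0. Zscan21 was at 18.5, 20.7 and 15.3 against 18.5, 18.3 and 20 (0.07, 95% interval -0.23 to 0.36), and its neighbour Zkscan1, 9.08 kb away on chromosome 5, at 7.82, 6.55 and 9.03 against 8.17, 8.67 and 6.99 (0.03, 95% interval -0.31 to 0.37). The groups overlapped for all 3 of these genes. Zscan25 had the lowest difference of the class (-0.22, 95% interval -0.54 to 0.10), at 5.86, 6.59 and 7.27 against 4.74, 5.77 and 5.99. Zkscan7, at 1.95, 2.82 and 1.77 against 2.33, 2.90 and 2.99 (0.24, 95% interval -0.21 to 0.70), and Zscan18, at 0.974, 0.932 and 0.875 against 1.18, 1.93 and 0.998 (0.28, 95% interval -0.28 to 0.84), lay between 1 and 3 steps and could hardly show a difference. Leaving out 1 library took these and other low SCAN members down by over 1.5 times: to 0.15 for Zkscan7 (without wild-type replicate 3), 0.12 for Zscan18 and 0.10 for Zkscan8 (both without knockdown-labelled replicate 2), 0.14 for Zscan12 (without wild-type replicate 1) and -0.13 for Zscan25 (without knockdown-labelled replicate 1). The remaining 6 members of the class, Zkscan5, Zkscan6, Zkscan14, Zscan2, Zscan20 and Zscan22, had log2 differences from -0.05 (Zkscan6) to 0.21 (Zscan2) and overlapped between the groups.

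In the BTB class, members with known roles in the immune system lay on both sides. Zbtb46 encodes a factor that marks conventional dendritic cells and is also expressed by endothelium. It was at 7.80, 7.46 and 7.96 in the wild-type libraries, against 20.3, 8.62 and 13 in the knockdown-labelled libraries (log2 difference 0.70, SE 0.26, 95% interval 0.08 to 1.33). The wild-type libraries lay close together and those labelled knockdown were widely spread, and at 9.0 steps the lowest of the latter equalled the highest of the former (8.9 steps). Without knockdown-labelled replicate 1 the log2 difference was 0.41.

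Endothelial markers were ordered like Zbtb46 among the knockdown-labelled libraries. Their mean score, the average over 10 genes of each gene's log2 value minus its own mean, was -0.16, -0.28 and -0.20 in the wild-type libraries, against 0.76, -0.37 and 0.25 in the knockdown-labelled libraries. Summed, they came to 742 to 784 in the wild-type libraries, against 669 to 1569 in the others, and 0 of the 10 were listed at 0. Bcl6b, a BTB zinc finger gene of endothelium, had the same order, at 36.1, 26.1 and 26.6 against 80.8, 28.7 and 46.9 (0.69, 95% interval -0.12 to 1.50). Conventional dendritic cell markers had scores of -0.14, 0.22 and -0.34 against -0.24, 0.15 and 0.35, with summed values of 41.2 to 66.8 and 41.1 to 69.9 and 0 of 8 listed at 0, and their order differed from that of Zbtb46. The part of either cell type in the Zbtb46 values was not tested.

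Zbtb7b was lower in the knockdown-labelled libraries. It encodes ThPOK, the factor that commits developing T cells to the CD4 lineage, and the same protein has been described as a regulator of collagen genes. Its values were 29.3, 23.5 and 28.1 in the wild-type libraries, against 18.8, 22.1 and 23.0 in the knockdown-labelled libraries, with no overlap, and in steps the lowest wild-type library was at 25.2 and the highest knockdown-labelled library at 23.1. Group means were 27.0 ± 3.11 and 21.3 ± 2.20 (SD, n = 3 each) and the log2 difference was -0.33 (SE 0.12, 95% interval -0.62 to -0.03). T cell markers had lower means for 10 of 12 genes (median -0.16, but 0.04 without knockdown-labelled replicate 1), with scores of -0.06, 0.09 and 0.20 against -0.55, -0.11 and 0.43, and fibroblast markers for 6 of 10 (median -0.18, and -0.05 without that library); the CD4 gene itself was at 5.86, 4.68 and 5.48 against 2.43, 3.85 and 5.99. The summed T cell markers ranged from 227 to 250 and from 159 to 285, the fibroblast markers from 18565 to 21698 and from 13194 to 20564, with 0 listed at 0 in either list, and their part in the Zbtb7b values was not tested. Zbtb7c, a close relative of Zbtb7a and Zbtb7b, was also lower without overlap in the deposited values, at 5.86, 6.59 and 7.27 against 4.74, 5.77 and 4.99 (-0.30, 95% interval -0.61 to 0.01), but wild-type replicate 1 and knockdown-labelled replicate 2 were both at 6.0 steps. Zbtb7a, the repressor of this trio that is known for its roles in blood cell development and glycolysis, was the most abundant BTB member, at 28.3, 29.1 and 25.3 against 26.6, 24.1 and 30.9, with overlapping groups (-0.02, 95% interval -0.30 to 0.26).

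**Figure D4:**
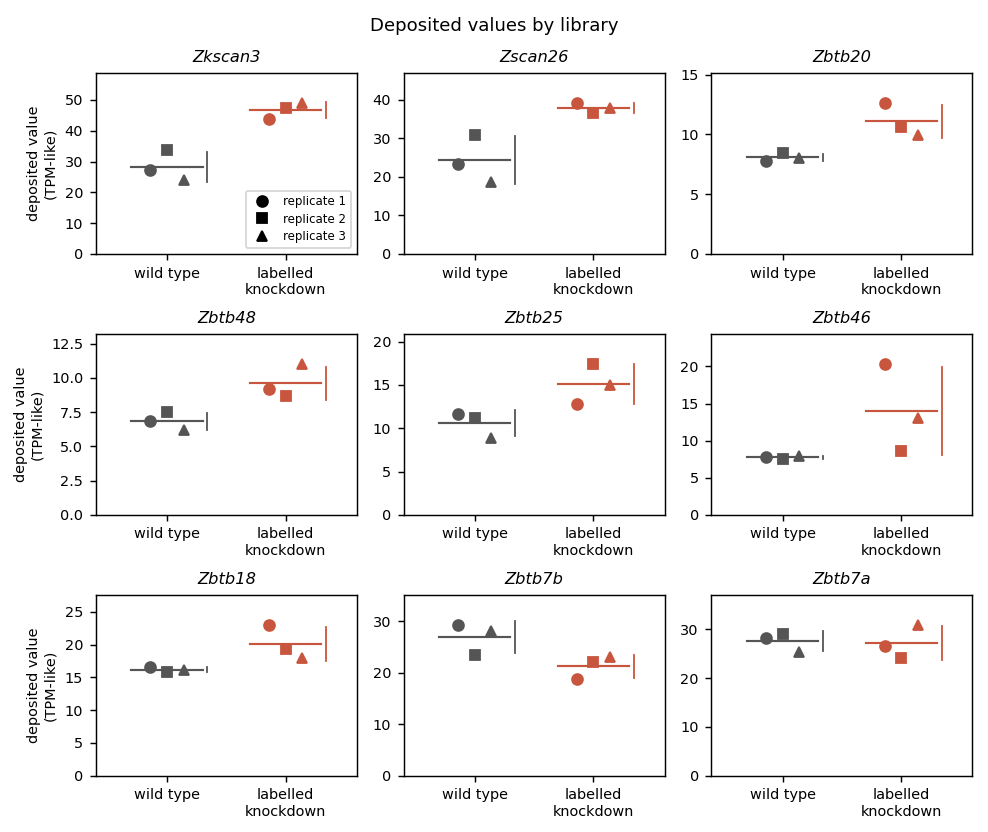
Deposited value in each library for 9 members, wild type in grey and labelled knockdown in red, with the symbol shape giving the replicate number, horizontal bars the group means and vertical lines 1 SD to either side. Zkscan3, Zscan26 and Zbtb20 lie higher and Zbtb7b lower in all 3 knockdown-labelled libraries, whereas the Zbtb7a groups overlap.

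Zbtb20, a repressor needed in liver, brain and plasma cells, was higher in the knockdown-labelled libraries. It was at 7.80, 8.43 and 8.02 in the wild-type libraries, against 12.6, 10.6 and 9.98 in the others (log2 difference 0.40, SE 0.12, 95% interval 0.13 to 0.68). In steps the groups also stayed apart, at 9 or fewer against 10 or more. Zbtb18, a repressor needed for neuronal differentiation and also known as RP58, was at 16.6, 15.9 and 16.1 against 23.0, 19.3 and 18 (0.28, 95% interval 0.02 to 0.55); in steps its highest wild-type library (18.1) and its lowest knockdown-labelled library (18) met. Adjusted for the mean score of 12 heart muscle markers, the differences were 0.28 for Zbtb20, 0.15 for Zbtb18, 0.75 for Zkscan3 and 0.60 for Zscan26. They were 0.51 for Zbtb48 and 0.54 for Zbtb25, all given without intervals. That score was -0.34, -0.24 and -0.42 in the wild-type libraries, against 1.19, 0.29 and -0.49 in the knockdown-labelled libraries. Knockdown-labelled replicate 1 thus weighed most in the adjustment, and the part of heart muscle content in these differences was not tested.

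Several further BTB genes lay higher by a few steps at most. Zbtb48, whose product TZAP binds telomere repeats and trims long telomeres, was at 6.82, 7.48 and 6.23 against 9.22, 8.68 and 11 (0.43, SE 0.13, 95% interval 0.14 to 0.73), without overlap in the deposited values. In steps, wild-type replicate 2 (8.0) met knockdown-labelled replicate 1 (7.9). Zbtb21 was at 5.85, 5.60 and 5.36 against 6.93, 6.75 and 7.98 (0.31, 95% interval 0.04 to 0.59), and it shares 19242 bases with C2cd2 on the same strand, so the assignment of its reads is uncertain. Zbtb10, Zbtb26 and Zbtb11 also lay apart in the deposited values, but overlapped in steps. Zbtb10 was at 3.89, 5.63 and 5.36 against 8.02, 5.77 and 5.99 (0.35, 95% interval -0.07 to 0.77), and its difference was 0.22 without knockdown-labelled replicate 1 and 0.21 without wild-type replicate 1. Zbtb26 was at 3.90, 3.73 and 4.48 against 4.68, 5.79 and 4.99 (0.29, 95% interval -0.04 to 0.61), and Zbtb11 at 6.82, 8.45 and 8.07 against 10.4, 8.66 and 8.98 (0.24, 95% interval -0.06 to 0.53, and 0.15 without wild-type replicate 1). Zbtb26 lies within Zbtb6 on the same strand, sharing 10968 bases, and Zbtb6 was at 9.76, 11.3 and 10.8 against 10.5, 11.6 and 8.98.

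Zbtb25 and Zbtb1 lie head to head and had unlike values. Their starts on chromosome 12 are 0.66 kb apart on opposite strands (Zbtb25 from 76347782 to 76369602, Zbtb1 from 76370266 to 76396950). Zbtb25, a repressor studied in T cells, was at 11.7, 11.2 and 8.86 in the wild-type libraries, against 12.8, 17.4 and 15.0 in the knockdown-labelled libraries (0.47, SE 0.15, 95% interval 0.11 to 0.82). In steps, knockdown-labelled replicate 1 (11) lay below wild-type replicates 1 and 2 (12 each). Zbtb1, which lymphocyte development requires, was at 8.79, 7.49 and 9.94 against 9.30, 8.66 and 7.98, with overlapping groups (-0.01, 95% interval -0.31 to 0.30). The window upstream of Zbtb25, chr12:76369603-76369810 on the minus strand, is shown because it lies in the interval between both genes, beside that of Zbtb18, chr1:177442101-177442350 on the plus strand, as the member with the most GC box matches among those named. Capitals mark the same motifs as above.
Zbtb25: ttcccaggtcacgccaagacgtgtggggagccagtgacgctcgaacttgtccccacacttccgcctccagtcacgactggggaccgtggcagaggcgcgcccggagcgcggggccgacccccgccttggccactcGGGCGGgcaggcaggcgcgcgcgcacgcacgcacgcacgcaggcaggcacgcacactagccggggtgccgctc
Zbtb18: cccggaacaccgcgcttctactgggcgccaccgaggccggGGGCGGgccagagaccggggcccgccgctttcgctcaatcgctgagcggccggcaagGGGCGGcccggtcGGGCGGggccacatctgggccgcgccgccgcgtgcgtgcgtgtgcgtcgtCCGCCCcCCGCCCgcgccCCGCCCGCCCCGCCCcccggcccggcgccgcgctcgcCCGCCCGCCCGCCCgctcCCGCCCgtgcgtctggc
The Zbtb25 window held 1 GC box and the Zbtb18 window 12, with GC contents of 73.6% and 84.0%, where the Zscan26 window had 45.3%.

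BTB genes of blood cell lineages at very low levels gave little information. Zbtb16 encodes PLZF, the factor of innate-like T cells that is also induced by glucocorticoids in many tissues. It was at 0.957, 2.81 and 0.837 against 4.48, 1.92 and 3.99, with overlapping groups and 1 to 4 steps in all (0.85, 95% interval -0.01 to 1.70). Zbtb32, a repressor of activated lymphocytes, was at 0.970, 1.88 and 1.84 in wild type. Knockdown-labelled replicates 1 and 3 were at 1.16 and 2.00, and replicate 2 was listed at 0 (-0.44, 95% interval -1.44 to 0.56).

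Members that bind methylated DNA, and a few other well-studied regulators, overlapped between the groups. Zbtb33, or Kaiso, which binds methylated and unmethylated sites, was at 8.80, 7.50 and 10.9 against 9.30, 7.68 and 7.98 (-0.10, 95% interval -0.46 to 0.26). Zbtb4 was at 22.4, 23.5 and 25.2 against 27.8, 26.0 and 24.9 (0.14, 95% interval -0.07 to 0.36), and Zbtb38 at 18.6, 20.7 and 23.5 against 21, 25.1 and 16 (-0.03, 95% interval -0.43 to 0.37). Zbtb24, a gene needed for methylation of some centromeric repeats, was at 11.7, 13.2 and 12.6 against 11.7, 13.5 and 14 (0.06, 95% interval -0.20 to 0.31). Zbtb17, or Miz1, a partner of MYC, was at 12.7, 11.2 and 10.7 against 16, 11.5 and 15.0 (0.27, 95% interval -0.07 to 0.60). The highest value of each of these 5 genes was in wild type for Zbtb33 and in a knockdown-labelled library for the other 4.

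Of the Zbtb symbols, 2 do not name BTB proteins. Zbtb8os, on the opposite strand to Zbtb8a and sharing 920 bases with it, encodes archease, a cofactor of tRNA ligation, and was at 14.7, 12.2 and 14.5 against 12.8, 13.5 and 12. Zbtb11os1 is annotated as antisense to Zbtb11, with 735 shared bases, and was at 2.99 to 4.61. Without both, 22 of 38 fitted Zbtb members were higher and the median log2 difference was 0.04. Whether the authors counted by strand is not stated in the labels, so reads of these pairs, of Zbtb45 and Trim28 (6137 shared bases) and of Zbtb12 and C2 (17385 shared bases) may have been mixed. Zbtb20 and Zbtb7b also overlap antisense genes, Gm19522 (27696 shared bases) and Gm15417 (2927 shared bases). The same doubt holds for Zbtb9, which shares 35160 bases with Ggnbp1 on the same strand, and for Zbtb22, which lies inside Tapbp on the same strand and was at 19.5, 15.9 and 20.9 against 16.3, 15.4 and 18. The Zbtb members not given above had log2 differences from -0.20 (Zbtb12) to 0.22 (Zbtb40), and the groups overlapped for each of them.

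The number of fingers was counted from the coding sequences. Translated from the main coding sequence of GENCODE M21, 40 BTB members of 420 to 1258 residues held 1 to 14 matches to the C2H2 finger pattern, with a median of 4.0. The 18 SCAN members of 466 to 1030 residues also held 1 to 14, with a median of 7.0. Zkscan3, at 553 residues, and Zscan26, at 466 residues, held 7 each, and Zbtb7b held 3 in 544 residues. Zkscan4 and Zscan12, of the same cluster, also held 7.

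The same domains occur in genes that carry other names. Of 7 fitted BTB zinc finger genes under other names, 6 had a higher mean (median log2 difference 0.08). With limma, 0 passed the adjusted test and 1, which was lower, had an unadjusted p under 0.05, beside 6.55% of all genes. The exception was Bcl6, which encodes the repressor of germinal centre B cells and of inflammatory chemokine genes. It was at 22.5, 24.5 and 26.4 in the wild-type libraries, against 14.3, 20.2 and 21 in the knockdown-labelled libraries, lower without overlap (-0.40, 95% interval -0.77 to -0.03). B cell markers had lower means for 10 of 10 genes (median -1.33), with summed values of 1982 to 3406 in the wild-type libraries, against 516 to 2130 in the others and 1 of 10 listed at 0 in a library, and their part in the Bcl6 values was not tested. Of 10 SCAN genes under other names, 8 had a higher mean (median 0.18), 0 passed the adjusted limma test and 4, all higher, had an unadjusted p under 0.05, beside 8.29% of all genes higher at that p and 50.8% with a higher mean. Zfp446 was at 1.94, 1.85 and 1.76 against 3.44, 2.89 and 3.99 (0.63, 95% interval 0.24 to 1.03), and Zfp397 at 13.7, 13.1 and 14.4 against 16.2, 16.4 and 16 (0.22, 95% interval 0.02 to 0.43). Zfp445, a KRAB and SCAN gene that protects genomic imprints, was at 24.4, 33.9 and 22.3 against 36.8, 32.8 and 34.9 (0.39, 95% interval 0.01 to 0.76), with wild-type replicate 2 again the highest of its group. Zinc finger genes named Zfp and a number had a median of 0.12, with 236 of 327 higher.

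Partners of these factors lay on both sides of 0. Among the 15 corepressor and ubiquitin ligase genes that act with BTB proteins, 8 were higher and 7 lower (median 0.04), 0 passed the adjusted limma test, 0 had an unadjusted p under 0.05, beside 8.29% of all genes higher and 6.55% lower, and the groups overlapped for all 15. Hdac1, which encodes a histone deacetylase, was at 80.1, 75.1 and 88.7 against 67.6, 71.2 and 75.8 (-0.18, 95% interval -0.41 to 0.05). Of 9 genes of the KRAB corepressor complex, 3 were higher and 6 lower (median -0.09), with 0 past the adjusted limma test and 1 higher and 1 lower at an unadjusted p under 0.05, beside 8.29% and 6.55% of all genes. Cbx3, which encodes a heterochromatin protein, was lower without overlap, at 70.4, 64.8 and 72.4 against 59.3, 56.8 and 56.9 (-0.26, 95% interval -0.46 to -0.06). Atrx was higher, at 24.4, 25.3 and 27.9 against 32.4, 31.8 and 28.9 (0.26, 95% interval 0.03 to 0.48). Trim28, the KRAB-binding corepressor, was at 85.9, 86.4 and 85.0 against 64.2, 78.0 and 85.8 (-0.18, 95% interval -0.46 to 0.10). The 42 fitted genes of BTB proteins without zinc fingers had 23 higher and 19 lower (median 0.01).

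Genes that these factors are known to regulate had no common direction. Of 9 autophagy and lysosome genes described as targets of ZKSCAN3, 3 were higher and 6 lower (median -0.03), with 0 past the adjusted limma test and 1, which was lower, at an unadjusted p under 0.05, beside 6.55% of all genes. The lysosome membrane gene Lamp1 was at 940, 815 and 841 against 603, 801 and 655 (-0.34, 95% interval -0.69 to 0.01), and Ulk1, which encodes the kinase that starts autophagy, at 17.6, 19.7 and 18 against 22.0, 20.2 and 21 (0.18, 95% interval -0.03 to 0.40). Macrophage markers, which come from cells rich in lysosomes, had lower means for 12 of 12 genes (median -0.57, and -0.29 without knockdown-labelled replicate 1), with summed values of 8396 to 11158 in the wild-type libraries, against 3928 to 7804 in the knockdown-labelled libraries, and 0 of 12 listed at 0. Their part in the lysosome gene values was not tested. Of 3 glycolysis genes repressed by ZBTB7A, Pfkp was at 0.26 (95% interval -0.03 to 0.55) and Pkm at -0.19 (95% interval -0.47 to 0.09) as log2 differences. Of 5 other target genes, 1 was higher and 4 lower, among them Cdkn1a, a target of Miz1, at 118, 106 and 115 against 98.9, 106 and 101.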

How the data were processed

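The authors deposited 1 table: 16205 gene rows by 6 libraries. It is named as TPM, yet its deposited values act as a rescaled score, since column sums run from 901563 to 1159657, and the rescaling is not stated. Per the submitters' processing notes the build was mm10; no source used here names the aligner or quantifier, and the labels name 2 library kits without assigning them. Duplicate symbols were reduced to the row of highest mean (6 left out). Values were taken as log2(value + 1) for 14025 genes with a mean of at least 1, which understates changes of low genes, and groups were compared with limma 3.58.1 in R 4.3.3 (intensity trend, no covariate, Benjamini-Hochberg at 0.05), checked on simulated data (200 changed genes, all 200 with the right sign). That simulated check counted signs only. It does not show whether differences as small as those of the members would be found. The limma test had been planned for TPM. A step is the median of the values near 1 in a library. Among values under 3.5 steps, 97.3% to 100.0% were whole within a tolerance of 0.15 steps. Divided by the step of its library, the column sums ran from 996826 to 1013982, near the 1000000 of TPM. Coordinates and coding sequences are from GENCODE M21 of the same build. Members and lists were chosen with earlier results of these data known. Members named with all values are the 5 most abundant of each class, the 12 Zbtb and 8 SCAN members with the smallest p, and a list of well-studied genes. Lists of other genes name up to 4 with the smallest p, and Rian besides.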

Additional observations from a re-analysis of the deposited data

How the results depend on the processing

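Class medians moved most with the scale between libraries, and counts also with single libraries. Rescaled to a sum of 1000000, 4 Zbtb members had an unadjusted limma p under 0.05 in place of 7. There 9 members did not overlap in place of 16 (Zbtb 3 higher and 2 lower, Zscan and Zkscan 3 higher and 1 lower). The median log2 difference was then -0.10 for Zbtb and 0.01 for Zscan and Zkscan members. Of all genes, 460 were then higher and 1389 lower at that p, in place of 1162 and 919. Without overlap, 834 of all genes were higher and 2398 lower, in place of 1762 and 1385. With mitochondrial genes left out before rescaling, an alternative added after the data were seen, the Zbtb median was 0.06. The count of 7 became 3 after adjustment for the heart muscle score, also added later, beside 751 higher and 302 lower of all genes. Leaving out single libraries, the members without overlap ranged from 18 to 24 in place of 16. Fewer libraries separate more easily: of all genes, 2265 to 3050 were then apart as higher and 1660 to 2577 as lower. The count of 7 ranged from 2 (wild-type replicate 3 left out) to 7. It was 3 when wild-type replicate 1 and 4 when knockdown-labelled replicate 1 was dropped. Of all genes, 655 to 1366 were then higher and 338 to 1229 lower at that p. The 2 Zscan and Zkscan members under that p stayed 2 in every alternative. Over all genes, 0 to 13 passed the adjusted test when single libraries were left out (2 when wild-type replicate 2 and 13 when knockdown-labelled replicate 3 was dropped, all of them lower), and 0 in the other alternatives; no member passed in any. Zkscan3 ranged from 0.57 to 0.84, Zscan26 from 0.48 to 0.83, Zbtb20 from 0.27 to 0.47 and Zbtb7b from -0.46 to -0.21. Whether the replicate numbers pair the libraries could not be settled. Same-numbered libraries had correlations of deviations of 0.056, 0.061 and 0.143 across genes, and the other pairs -0.109 to 0.060. Each knockdown-labelled library correlated best with the wild-type library of its number, for replicate 2 only narrowly (0.061 against 0.060). Wild-type replicate 1 correlated better with knockdown-labelled replicate 2 (0.060) than with replicate 1. With the replicate block, 4 Zbtb members had an unadjusted limma p under 0.05, beside 1039 higher and 764 lower of all genes. The causes of these shifts were not tested. Rounding to about 1 step limits members under a few steps.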
